A study of Homo sapiens with 8 samples.

Results

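The genes described are the C-terminal binding proteins CTBP1 and CTBP2, 6 of the chromatin enzymes and scaffolds they assemble with (RCOR1, KDM1A, HDAC1, HDAC2, EHMT1 and EHMT2), and the repressors ZEB1 and ZEB2 that bring them to DNA. They were chosen by gene symbol, as 10 of the 25906 genes of an RNA-seq expression table. Messenger RNA came from 2 human multiple myeloma lines, MM.1S and NCI-H929, 72 h after lentiviral transduction with a CTBP2 overexpression vector or an empty vector. Each line and vector had 2 libraries that the design calls biological duplicates, so 4 libraries carried the CTBP2 vector and 4 the empty vector. All cells had been through lentiviral transduction, the empty vector ones included. Nothing in the labels says whether transduced cells were selected, so the values are of the whole culture, and the promoter that drives CTBP2 in the vector is not named there.

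CtBP proteins do not bind DNA themselves. They are corepressors related to metabolic dehydrogenases, bind NADH, and form dimers that hold a short peptide motif in DNA-binding repressors such as ZEB1 and ZEB2. Directly or through scaffold proteins they bring in histone deacetylases, the H3K4 demethylase KDM1A with its CoREST scaffold RCOR1, and the H3K9 methyltransferases EHMT1 and EHMT2, so that active histone marks are removed and a repressive one is written at the bound gene.

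The line of each library was read from its own expression, with CCND2 above 10 FPKM taken as MM.1S and FGFR3 above 10 FPKM as NCI-H929 (FPKM, fragments scaled to transcript length and library size). A total of 6 libraries followed their line labels. In the one labelled MM.1S CTBP2 replicate 2, CCND2 was at 0.0582 FPKM and FGFR3 at 22.2 FPKM, and in the one labelled NCI-H929 CTBP2 replicate 2, CCND2 was at 60.7 FPKM and FGFR3 at 0.0399 FPKM. Both went against their line labels, while CTBP2 itself followed the vector labels everywhere. The libraries are therefore called MM.1S-expressing and NCI-H929-expressing below, and the calls of the members and the counts of each gene list are also given with the line as labelled and without these 2 libraries. All 7 plasma cell markers examined (SDC1, CD38, TNFRSF17, SLAMF7, XBP1, PRDM1 and IRF4) were present in every library, with summed levels of 1141 to 1995 FPKM in CTBP2 libraries and 1530 to 2449 FPKM in empty vector libraries. Among them IRF4, a transcription factor plasma cells depend on, had 59.7 to 69.6 FPKM in CTBP2 libraries and 132 to 160 FPKM in empty vector libraries and fell by 1.17 on the log2 scale (SE 0.12, limma adjusted p = 0.00166; 0.0309 with the line as labelled and 0.00459 without the 2 libraries). TNFRSF17, the receptor BCMA, fell by 0.85 (SE 0.15, limma adjusted p = 0.00578), a call lost with the line as labelled (0.357). CD38 went the other way, by 0.85 (SE 0.31), and was not called in both lines together (limma adjusted p = 0.0574), but was called higher without the 2 libraries (0.87, limma adjusted p = 0.023). It was called higher in NCI-H929-expressing libraries (1.37, SE 0.38, limma adjusted p = 0.0297). Of the 7 markers, 0 rose, 2 fell and 5 were not called in both lines together, against 34.1% of all genes called. With the line as labelled 0 rose and 1 fell, and without the 2 libraries 1 rose and 3 fell. Of the line markers MAF rose by 0.56 (SE 0.13, limma adjusted p = 0.0116) and CCND1 fell by 0.85 (SE 0.29, limma adjusted p = 0.0471), both lost with the line as labelled, CCND1 also without the 2 libraries (0.0737). Of 9 markers of other cell types, CD3D, CD14, LYZ and COL1A1 stayed under 1 FPKM in every library, and the sum of the 9 ran from 9.35 to 61.4 FPKM in CTBP2 libraries and from 7.76 to 13.1 FPKM in empty vector libraries. CD3E had 53.1 and 16.7 FPKM in NCI-H929-expressing CTBP2 libraries, 4.76 and 2.44 FPKM in MM.1S-expressing ones and 0.527 to 3.65 FPKM in empty vector libraries. It was called higher (2.13, SE 0.45, limma adjusted p = 0.00925), a call lost with the line as labelled (0.207) and kept without the 2 libraries (1.91, limma adjusted p = 0.00488). CD3D stood at 0.214 FPKM in the library highest for CD3E. Of the 9 markers 4 were tested and 2 were called, CD3E and EPCAM, against 34.1% of all genes. EPCAM passed the filter through CTBP2 libraries alone. HBB (-0.54, SE 0.23) and PECAM1 (-0.29, SE 0.18) leaned the other way and were not called. The part of such differences in the results below was not tested.

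Both paralogs have promoters rich in CG dinucleotides, and one of them was almost silent here, which is why these sequences are shown. Each is 250 bases before to 50 after a start site of the RefSeq annotation of GRCh38.p14, whose coordinates are of another build than the GRCh37 alignment named in the submitters' notes. Each CG is in capitals. The CTBP2 start with the most CGs lies at chr10:125158728-125159027 on the minus strand, and the CTBP1 one at chr4:1249081-1249380, also on the minus strand.
CTBP2: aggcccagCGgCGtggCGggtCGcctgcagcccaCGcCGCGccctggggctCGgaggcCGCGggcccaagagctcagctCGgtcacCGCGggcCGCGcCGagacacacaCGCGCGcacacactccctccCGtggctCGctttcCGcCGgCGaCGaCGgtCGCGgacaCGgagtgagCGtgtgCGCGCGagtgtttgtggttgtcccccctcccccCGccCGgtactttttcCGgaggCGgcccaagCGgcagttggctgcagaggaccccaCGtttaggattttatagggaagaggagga
CTBP1: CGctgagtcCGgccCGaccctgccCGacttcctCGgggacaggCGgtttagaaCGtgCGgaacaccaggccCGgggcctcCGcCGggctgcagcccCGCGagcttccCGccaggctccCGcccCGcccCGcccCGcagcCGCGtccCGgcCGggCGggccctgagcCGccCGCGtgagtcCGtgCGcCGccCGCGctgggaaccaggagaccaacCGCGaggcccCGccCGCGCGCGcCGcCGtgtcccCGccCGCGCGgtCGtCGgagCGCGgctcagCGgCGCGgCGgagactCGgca
The CTBP2 stretch holds 39 CGs and the CTBP1 stretch 53, against a median of 14 over 35116 RefSeq promoters of 300 bases. At least as many were found in 8.7% and 0.6% of these promoters. They are the richest of 5 CTBP2 and 3 CTBP1 starts, and the poorest CTBP2 start holds 4. CG content is a description of the sequence, and methylation was not measured.

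CTBP2 was close to absent without its vector and among the most abundant transcripts with it. It stood at 2145 and 1621 FPKM in the MM.1S-expressing CTBP2 libraries, against 0.213 and 0.201 FPKM in MM.1S cells with the empty vector. In the NCI-H929-expressing CTBP2 libraries it stood at 5884 and 3427 FPKM, against 0.148 and 0.184 FPKM in NCI-H929 cells with the empty vector. The groups lay far apart: the lowest CTBP2 library was 7617 times the highest empty vector library. By rank among all genes of a library, CTBP2 stood at rank 7 to 22 in CTBP2 libraries and at rank 13158 to 13610 in empty vector libraries. It took 0.313 to 1.08% of all FPKM in the CTBP2 libraries.

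The empty vector level rests on few fragments. With depth inferred from the spacing of low values (16000000 to 21000000 fragments), 0.148 to 0.213 FPKM corresponds to 5.7 to 6.9 fragments over the shortest annotated CTBP2 transcript (1918 bases) or 20.6 to 25.1 over the longest (6939 bases). A gene-level FPKM does not separate vector-derived from endogenous CTBP2, so these cannot be told apart in the CTBP2 libraries, and the level there also depends on the transcript length used for the division.

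The 4 CTBP2 libraries did not carry equal amounts. The highest held 3.63 times the FPKM of the lowest, and the mean of the NCI-H929-expressing ones was 2.47 times that of the MM.1S-expressing ones. In bulk libraries, fewer cells with the vector and less CTBP2 RNA per cell cannot be told apart. On the log2(FPKM + 1) scale, the difference between the lines in the CTBP2 effect was 1.32 (SE 0.36), which did not pass the test over all 12583 genes (limma, Benjamini-Hochberg adjusted p = 0.134). It passed in 1 of 8 fits that each left out a library, with MM.1S CTBP2 replicate 2 (as labelled) left out, at 1.71 (limma adjusted p = 0.0436). In both lines together CTBP2 rose by 11.25 on the log2 scale (SE 0.28, limma adjusted p = 1.25e-07), and was called with the line as labelled and without the 2 displaced libraries too. The size depends on the pseudocount, since the empty vector levels lie under 1 FPKM: with 0.1 in place of 1 it was 13.31.

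CTBP1, the paralog that shares most partners with CTBP2, was a moderately abundant transcript in all 8 libraries. It had 61.1 and 64.1 FPKM in MM.1S-expressing CTBP2 libraries, against 54.0 and 60.2 FPKM in MM.1S empty vector libraries. In NCI-H929-expressing libraries it had 52.8 and 51.6 FPKM with CTBP2, against 40.7 and 41.2 FPKM with the empty vector. Within each line both CTBP2 libraries lay above both empty vector libraries, but over the lines the groups overlapped. The log2 fold change was 0.24 (SE 0.11) and did not pass the test with the values as deposited (limma adjusted p = 0.106). It did pass after a median-of-ratios rescale (0.31, limma adjusted p = 0.0425) and with library totals made equal without immunoglobulin genes and CTBP2 (0.53, limma adjusted p = 0.0117).

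**Figure D1:**
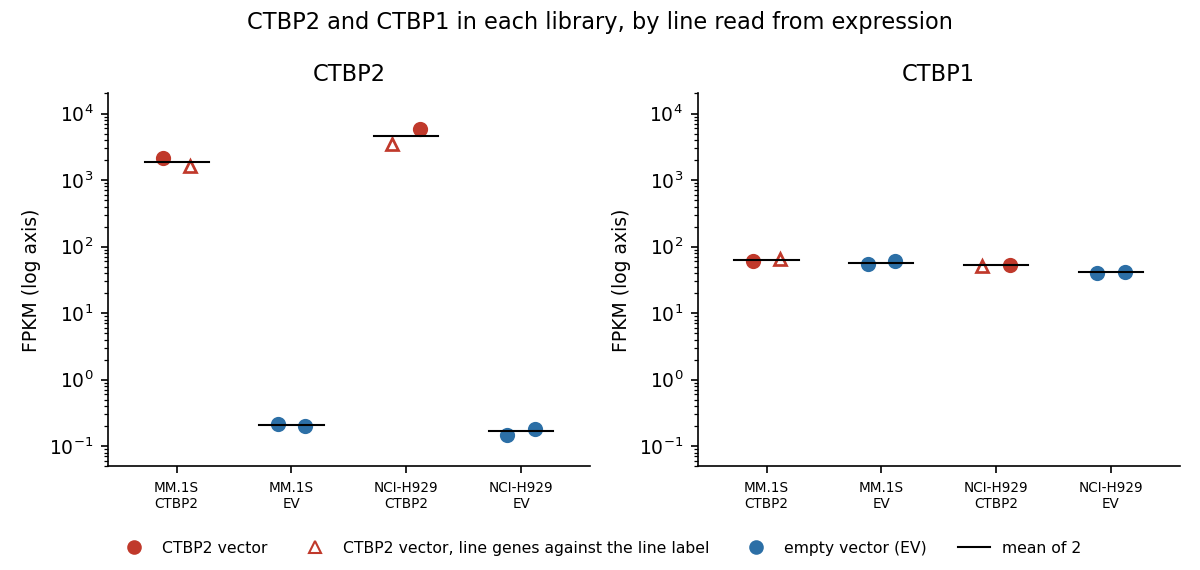
CTBP2 (left) and CTBP1 (right) in FPKM on a log axis for each of the 8 libraries, by line read from expression and vector; points are libraries, open triangles the 2 libraries whose line genes go against their labels, and bars means of 2. CTBP2 lies at 1621 to 5884 FPKM with its vector and at 0.148 to 0.213 FPKM with the empty vector, while CTBP1 stays between 40.7 and 64.1 FPKM.

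The balance between the paralogs was turned round. CTBP2 exceeded CTBP1 by 25.3 to 112 times in the 4 CTBP2 libraries, whereas CTBP1 exceeded CTBP2 by 225 to 300 times in the 4 empty vector libraries. These are ratios of FPKM, which is per length. In empty vector libraries CTBP2 rests on few fragments, an estimated 5.7 to 6.9 over its shortest annotated transcript, so the size of the ratio there is uncertain. CTBP1-AS, an antisense transcript of the CTBP1 locus, had 5.84 to 8.17 FPKM in CTBP2 libraries and 3.40 to 8.50 FPKM in empty vector libraries and was not called (log2 fold change 0.30, SE 0.14, limma adjusted p = 0.115); strand is not stated for the counting, so its reads and those of CTBP1 cannot be told apart with certainty.

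Among the 10 genes, 9 passed the filter of at least 1 FPKM in at least 2 libraries, CTBP2 through its own vector libraries alone; ZEB2 did not. In both lines together 4 of these 9 were called at an adjusted p under 0.05, with CTBP2 and ZEB1 higher and KDM1A and EHMT2 lower, against 34.1% of all genes tested. A share of 4 in 9 is thus not far from the background, in which 2186 genes were called higher and 2101 lower. CTBP2 is the gene of the vector, so its call was set by the design and adds nothing to that share. With the line as labelled CTBP2 was the one member called of 9, and without the 2 displaced libraries CTBP2 and EHMT2 were. The median log2 fold change of all genes was 0.04 as deposited, 0.10 after the median-of-ratios rescale and 0.27 with equal totals, so the scale chosen shifts genes as a whole. Relative to that median, CTBP1 had 0.20 as deposited and 0.26 with equal totals, and HDAC1 0.24 and 0.30. In the same order KDM1A had -0.46 and -0.42, and HDAC2 -0.32 and -0.27.

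RCOR1 is the CoREST scaffold that ties KDM1A to the deacetylases. It had 4.16 and 4.24 FPKM in MM.1S-expressing CTBP2 libraries, against 3.59 and 3.40 FPKM in MM.1S empty vector libraries. In NCI-H929-expressing libraries it had 6.97 and 6.77 FPKM with CTBP2, against 6.43 and 6.61 FPKM with the empty vector. The vector groups lay apart within each line and the lines lay further apart than the vectors. Its change of 0.14 on the log2 scale (SE 0.10) did not pass (limma adjusted p = 0.29), and passed with equal totals only (0.39, limma adjusted p = 0.0414).

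KDM1A, also called LSD1, removes methyl groups from H3K4. It had 13.2 and 14.8 FPKM in MM.1S-expressing CTBP2 libraries, against 17.1 and 18.0 FPKM in MM.1S empty vector libraries. In NCI-H929-expressing libraries it had 20.2 and 17.8 FPKM with CTBP2, against 31.4 and 25.6 FPKM with the empty vector. All CTBP2 libraries lay below the empty vector libraries of their line, with overlap across lines. The log2 fold change of -0.43 (SE 0.12) passed the test (limma adjusted p = 0.0218). The call was the least stable of the 4: it was lost with the line as labelled (limma adjusted p = 0.232), without the 2 displaced libraries (0.0602), with equal totals (-0.15, limma adjusted p = 0.334) and in 4 of 8 fits that left out 1 library, the CTBP2 libraries labelled MM.1S replicates 1 and 2 and the empty vector libraries MM.1S replicate 2 and NCI-H929 replicate 1, where it ran from -0.44 to -0.35.

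HDAC1 and HDAC2 are the paired class I deacetylases of the complex, and they leaned opposite ways. HDAC1 had 66.4 and 60.1 FPKM in MM.1S-expressing CTBP2 libraries, against 55.9 and 54.6 FPKM in MM.1S empty vector libraries, and 59.0 and 75.2 FPKM in NCI-H929-expressing CTBP2 libraries, against 47.5 and 56.3 FPKM in NCI-H929 empty vector libraries. HDAC2 had 14.6 and 15.8 FPKM in MM.1S-expressing CTBP2 libraries, against 16.0 and 18.4 FPKM in MM.1S empty vector libraries, and 12.1 and 13.0 FPKM in NCI-H929-expressing CTBP2 libraries, against 17.3 and 16.2 FPKM in NCI-H929 empty vector libraries. For both genes the 4 CTBP2 and the 4 empty vector libraries did not overlap, HDAC1 being above and HDAC2 below. Neither passed the test over all genes, with a log2 fold change of 0.27 for HDAC1 (SE 0.12, limma adjusted p = 0.111) and -0.28 for HDAC2 (SE 0.11, limma adjusted p = 0.0706). With equal totals HDAC1 passed at 0.57 (limma adjusted p = 0.0212) and the difference of HDAC2 was 0.00 (limma adjusted p = 0.999).

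EHMT1 and EHMT2, known as GLP and G9a, form the heterodimer that writes mono- and dimethyl marks on H3K9. EHMT1 had 12.7 and 13.3 FPKM in MM.1S-expressing CTBP2 libraries, against 12.1 and 12.8 FPKM in MM.1S empty vector libraries, and 7.54 and 8.84 FPKM in NCI-H929-expressing CTBP2 libraries, against 7.43 and 7.70 FPKM in NCI-H929 empty vector libraries. Its vector groups overlapped within each line, and the log2 fold change of 0.08 (SE 0.10) did not pass (limma adjusted p = 0.567). EHMT2 had 11.1 and 13.8 FPKM in MM.1S-expressing CTBP2 libraries, against 17.4 and 18.8 FPKM in MM.1S empty vector libraries. In NCI-H929-expressing libraries EHMT2 had 11.5 and 13.2 FPKM with CTBP2, against 17.7 and 17.3 FPKM with the empty vector. The highest CTBP2 library lay below the lowest empty vector library by more than the whole spread of either group. EHMT2 fell by 0.49 on the log2 scale (SE 0.11, limma adjusted p = 0.011), also without the 2 displaced libraries (-0.61, limma adjusted p = 0.0149) and in all 8 fits that left out 1 library. The call was lost with the line as labelled (limma adjusted p = 0.0849) and with equal totals (-0.21, limma adjusted p = 0.236), although relative to the median of all genes the value was -0.52 as deposited and -0.48 with equal totals.

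**Figure D2:**
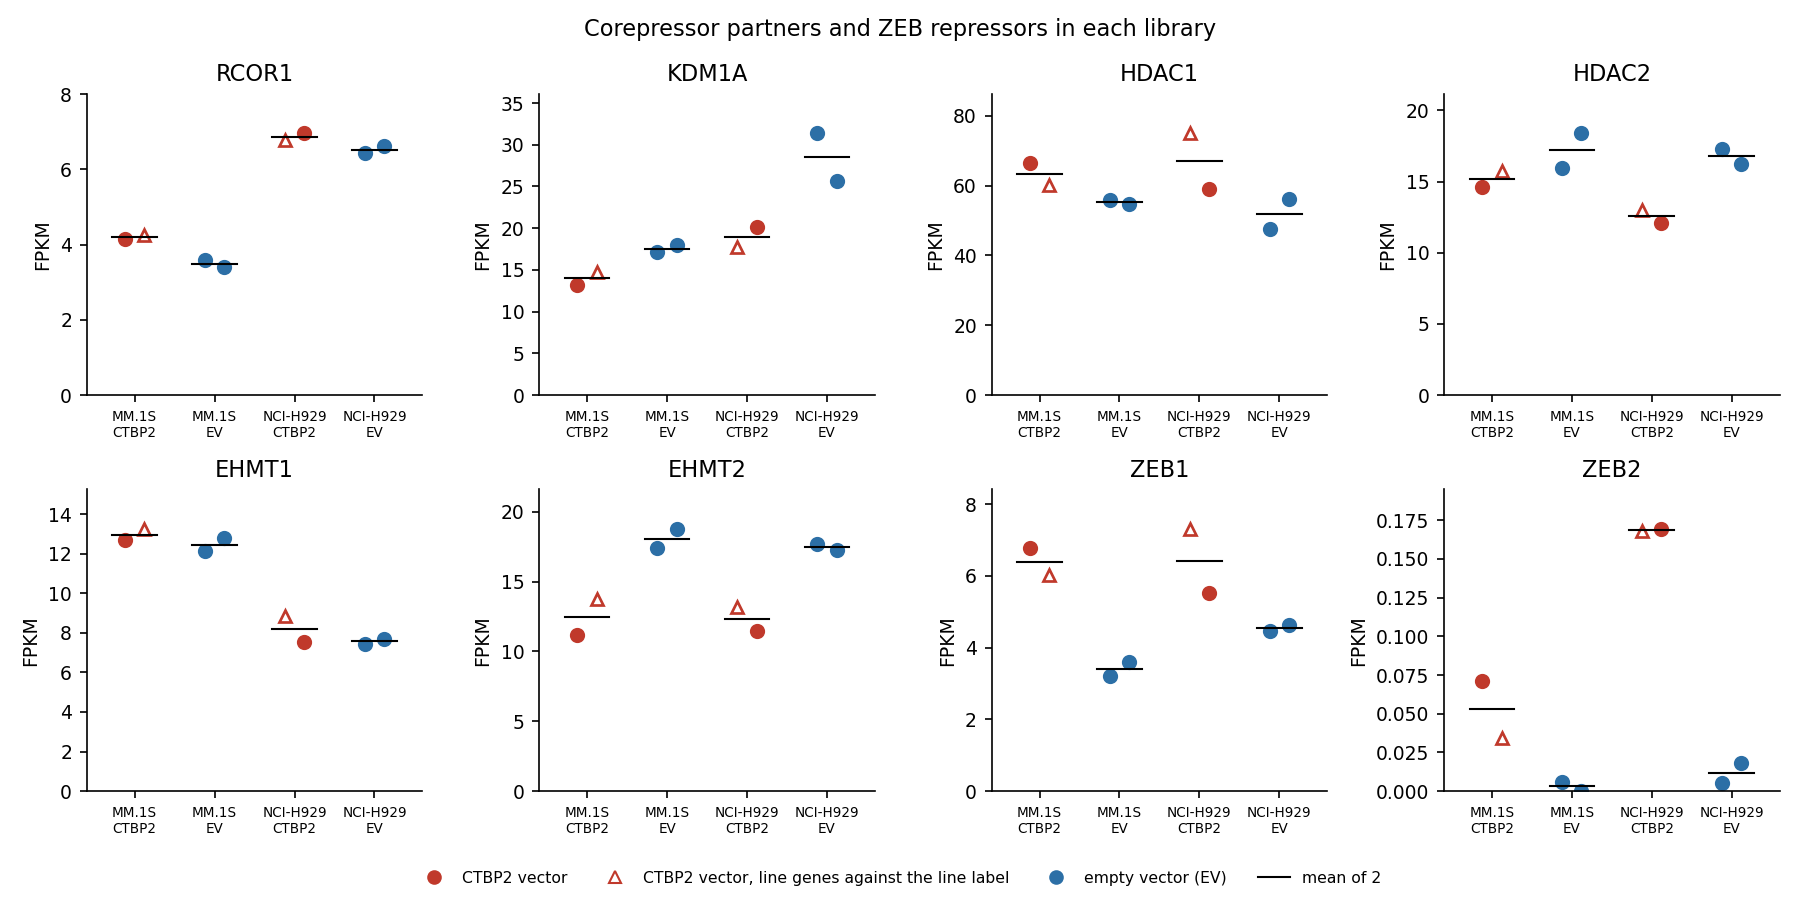
FPKM of the 8 members other than CTBP1 and CTBP2 in each library, on linear axes from 0, by line read from expression and vector; points are libraries, open triangles the 2 libraries whose line genes go against their labels, and bars means of 2. EHMT2 lies at 11.1 to 13.8 FPKM with CTBP2, below 17.3 to 18.8 FPKM with the empty vector, ZEB1 lies above, and RCOR1, KDM1A and EHMT1 differ more between lines.

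ZEB1 and ZEB2 are zinc finger repressors that bind the E-box letters CAGGTG and carry the peptide motif that CtBP holds. ZEB1 had 6.77 and 6.02 FPKM in MM.1S-expressing CTBP2 libraries, against 3.21 and 3.59 FPKM in MM.1S empty vector libraries. In NCI-H929-expressing libraries it had 5.54 and 7.31 FPKM with CTBP2, against 4.45 and 4.63 FPKM with the empty vector. Every CTBP2 library lay above every empty vector library. The ratio of means was 1.88 in MM.1S-expressing and 1.41 in NCI-H929-expressing libraries. ZEB1 rose by 0.58 on the log2 scale in both lines together (SE 0.13, limma adjusted p = 0.0109), after both rescales, and in all 8 fits that left out 1 library (0.52 to 0.68). The call was lost with the line as labelled (limma adjusted p = 0.101) and, at 0.53, without the 2 displaced libraries (0.0516).

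ZEB2 was barely detected. It stood at 0.0713 and 0.0343 FPKM in MM.1S-expressing CTBP2 libraries, against 0.00617 and 0 FPKM in MM.1S empty vector libraries. The NCI-H929-expressing CTBP2 libraries had 0.169 and 0.168 FPKM, against 0.00523 and 0.0179 FPKM in NCI-H929 empty vector libraries. The CTBP2 libraries lay above the others, but over the longest annotated transcript (9541 bases) these levels amount to an estimated 5.9 to 32.1 fragments in CTBP2 libraries and 0 to 2.9 fragments in empty vector libraries, and over the shortest (2949 bases) to 1.8 to 9.9 and 0 to 0.9 fragments. With no filter on low values ZEB2 was called higher, by 0.14 on the log2(FPKM + 1) scale (SE 0.03, limma adjusted p = 0.0292). No fold is given against a group at this floor, and the antisense gene ZEB2-AS1 was listed at 0 in all 8 libraries. The ZEB transcripts in these lines were thus nearly all ZEB1. ZEB1-AS1, antisense to ZEB1, had 1.90 to 2.38 FPKM in CTBP2 libraries and 0.759 to 2.16 FPKM in empty vector libraries and was not called (0.28, SE 0.16, limma adjusted p = 0.199); its reads and those of ZEB1 cannot be told apart with certainty.

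The ZEB1 start that holds most E-boxes is shown with each CAGGTG or its reverse complement CACCTG in capitals, beside the corresponding start of JUP, the plakoglobin gene described further on. ZEB1 lies at chr10:31318966-31319265 on the plus strand and JUP at chr17:41785927-41786226 on the minus strand of GRCh38.p14, from RefSeq.
ZEB1: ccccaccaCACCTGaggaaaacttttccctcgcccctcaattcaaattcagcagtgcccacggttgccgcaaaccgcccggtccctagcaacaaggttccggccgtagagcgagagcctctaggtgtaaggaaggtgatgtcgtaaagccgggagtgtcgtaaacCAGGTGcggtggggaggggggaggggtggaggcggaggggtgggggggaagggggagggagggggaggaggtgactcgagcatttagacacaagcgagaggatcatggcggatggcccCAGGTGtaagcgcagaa
JUP: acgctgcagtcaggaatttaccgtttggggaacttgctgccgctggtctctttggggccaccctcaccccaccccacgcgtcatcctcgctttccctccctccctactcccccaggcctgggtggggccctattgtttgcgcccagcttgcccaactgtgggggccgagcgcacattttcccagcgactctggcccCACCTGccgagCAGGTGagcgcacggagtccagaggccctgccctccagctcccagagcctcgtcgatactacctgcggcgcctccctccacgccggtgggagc
In ZEB1 the first letters of the E-boxes lie at -242, -85 and 33, and in JUP at -54 and -43, with 0 at the first transcribed base. Both strands were searched, and the E-box was the one motif looked for. It was found in 20.6% of the 35116 promoters, and of the 10 members in at least 1 start of 3, CTBP1, EHMT2 and ZEB1. The first is a share of promoters and the second a count of genes, where a gene with several starts has more chances. The 2 are thus not directly comparable. An E-box lies in 1 of 3 starts of CTBP1, in the 1 start of EHMT2 and in 1 of 2 starts of JUP. ZEB1 has 7 annotated starts, 2 of them with an E-box, and a match in these letters is no evidence of binding. Of other genes described with JUP, DSP has an E-box in its 1 start, and BBC3 and CGN have none in theirs.

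Counted by library, 5 of the 9 tested members showed no overlap between the 4 CTBP2 and the 4 empty vector libraries (CTBP2, HDAC1, HDAC2, EHMT2 and ZEB1), against 14.7% of all genes tested. Within a line, where only 2 libraries stand against 2, the counts were 8 of 9 in MM.1S-expressing libraries, against 62.9% of all genes, and 8 of 9 in NCI-H929-expressing libraries, against 68.0%. EHMT1 was the exception in both. CTBP2, the gene of the vector, had its place in each of these counts by design.

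Line by line, 2 of 9 members were called in MM.1S-expressing libraries, against 5.47% of all genes, and 3 of 9 in NCI-H929-expressing libraries, against 32.9%. In MM.1S-expressing libraries these were CTBP2 (10.59, SE 0.26) and ZEB1 (0.75, SE 0.17, limma adjusted p = 0.0424). CTBP2 is in both counts by design, as the gene of the vector, so the MM.1S count rests otherwise on ZEB1 alone. The ZEB1 call there was lost with the line as labelled, with no filter, with the replicate block (limma adjusted p = 0.0634) and in 6 of 8 fits that left out 1 library, and EHMT2 had -0.51 (SE 0.16, limma adjusted p = 0.0882). In NCI-H929-expressing libraries the called members were CTBP2 (11.91, SE 0.26), KDM1A (-0.56, SE 0.16, limma adjusted p = 0.0298) and EHMT2 (-0.47, SE 0.16, limma adjusted p = 0.0486). The last sits at the threshold and was lost in all 8 fits that left out 1 library and with the replicate block (limma adjusted p = 0.0549). Without the 2 displaced libraries neither was called (KDM1A -0.47, limma adjusted p = 0.152; EHMT2 -0.57, limma adjusted p = 0.0755). The KDM1A call was also lost in 4 of 8 fits that left out 1 library (-0.56 to -0.42), those without either MM.1S empty vector library, MM.1S CTBP2 replicate 2 or NCI-H929 empty vector replicate 1. With the line as labelled CTBP2 was the one member called there, and with equal totals the calls were CTBP1, CTBP2, HDAC1 and ZEB1, all higher. ZEB1 had 0.41 (SE 0.17, limma adjusted p = 0.0886) in NCI-H929-expressing libraries.

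A call in one line and not in the other does not show that the lines differ, and the difference itself was tested. None of the 9 members passed it (limma), against 1.26% of all genes. At an unadjusted p under 0.05 only CTBP2 did (limma, 0.00636), against 1937 of all 12583 genes tested. The difference of NCI-H929 minus MM.1S was -0.34 for ZEB1 (SE 0.23), -0.25 for KDM1A (SE 0.22) and 0.03 for EHMT2 (SE 0.22), all on the log2 scale.

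**Figure D3:**
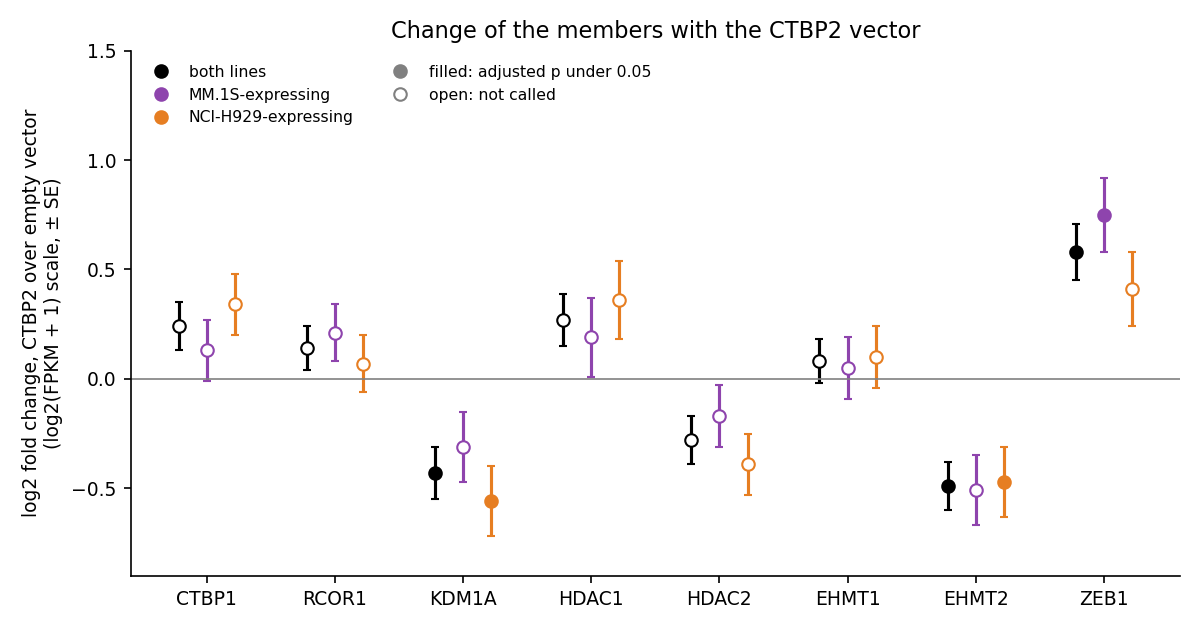
Log2 fold change of CTBP2 over empty vector on the log2(FPKM + 1) scale for the 8 tested members other than CTBP2, with standard errors from limma, in both lines together (black), MM.1S-expressing (purple) and NCI-H929-expressing libraries (orange); filled points have an adjusted p under 0.05. In both lines together ZEB1 lies at 0.58, KDM1A at -0.43 and EHMT2 at -0.49, and the other 5 were not called.

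Without the vector gene, some corepressor transcripts already differed between the lines, as did about as large a share of all genes. Comparing NCI-H929 with MM.1S empty vector libraries, 4 of 9 members (44.4%) were called, against 50.8% of all genes. The share is thus not above that of all genes, and CTBP2, counted among the 9, passed the filter through its vector libraries alone. RCOR1 was higher in NCI-H929 at 6.43 and 6.61 FPKM, against 3.59 and 3.40 FPKM in MM.1S (log2 fold change 0.74, SE 0.13, limma adjusted p = 0.0023). KDM1A was higher as well (0.66, SE 0.16, limma adjusted p = 0.00839), so scaffold and demethylase both stood higher in NCI-H929. EHMT1 was lower in NCI-H929 at 7.43 and 7.70 FPKM, against 12.1 and 12.8 FPKM in MM.1S (-0.65, SE 0.14, limma adjusted p = 0.00562), and CTBP1 was lower too (-0.47, SE 0.14, limma adjusted p = 0.0243). EHMT2, the partner of EHMT1, had -0.05 (SE 0.16) and was not called. The CTBP1 call was lost when any 1 of the 4 empty vector libraries was left out (-0.54 to -0.39) and after the median-of-ratios rescale (-0.36, limma adjusted p = 0.0518). The KDM1A call was lost without MM.1S replicate 1 (0.63, limma adjusted p = 0.0522), without NCI-H929 replicate 1 (0.52, limma adjusted p = 0.0684) and with equal totals (0.46, limma adjusted p = 0.052); with the line as labelled, which changes the spread alone here, none of the 9 was called. For RCOR1, KDM1A, CTBP1 and EHMT1 the difference between lines was larger in size than that between vectors, as values, and the CTBP2 libraries kept the order of the lines: RCOR1 was 6.77 to 6.97 FPKM in NCI-H929-expressing and 4.16 to 4.24 FPKM in MM.1S-expressing CTBP2 libraries.

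Ratios of 2 members within a library do not depend on how the library was scaled. The 3 pairs were chosen after the values had been seen and are given with no test. HDAC2 over HDAC1 was 0.215 ± 0.0369 in CTBP2 libraries and 0.319 ± 0.0386 in empty vector libraries (SD, n = 4 each), and the groups did not overlap, at 0.173 to 0.262 with CTBP2 and 0.285 to 0.364 with the empty vector. The log2 difference of this ratio was -0.37 in MM.1S-expressing and -0.78 in NCI-H929-expressing libraries. KDM1A over RCOR1, demethylase over scaffold, was 3.05 ± 0.371 in CTBP2 libraries and 4.70 ± 0.593 in empty vector libraries (SD, n = 4 each), again without overlap. It was lower by similar amounts in each line, -0.59 in MM.1S-expressing and -0.66 in NCI-H929-expressing libraries on the log2 scale. EHMT2 over EHMT1 was 1.23 ± 0.323 in CTBP2 libraries and 1.88 ± 0.501 in empty vector libraries (SD, n = 4 each), overlapping across lines, with log2 differences of -0.60 in MM.1S-expressing and -0.62 in NCI-H929-expressing libraries. Without the 2 displaced libraries the log2 differences were -0.58, -0.62 and -0.66 for these 3 ratios in the same order.

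**Figure D4:**
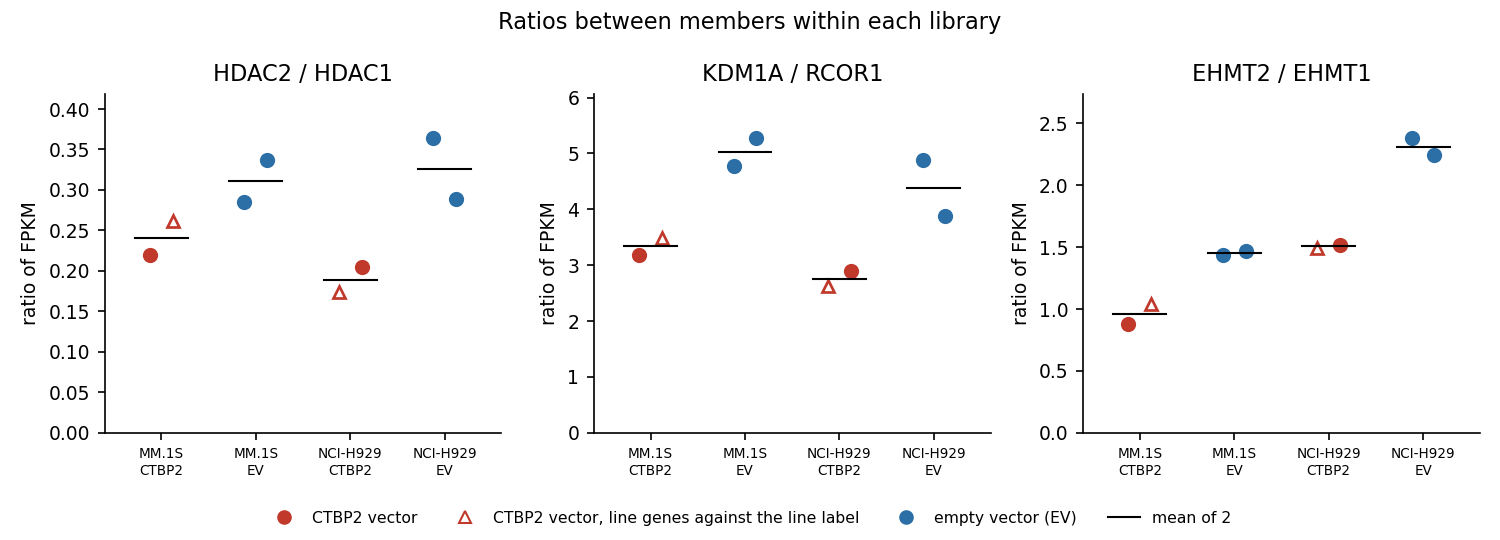
Ratios of FPKM between paired members within each library (HDAC2 over HDAC1, KDM1A over RCOR1, EHMT2 over EHMT1), on linear axes from 0, by line read from expression and vector; points are libraries, open triangles the 2 libraries whose line genes go against their labels, and bars means of 2. HDAC2 over HDAC1 is 0.173 to 0.262 with CTBP2 and 0.285 to 0.364 with the empty vector.

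The genes whose log2(FPKM + 1) over the 8 libraries was most like that of CTBP1, among genes with a standard deviation of at least 0.25, were GPR108, GPNMB and LINC00467, with Pearson correlations of 0.994, 0.992 and 0.99. Those most like ZEB1 were RILP, PARP12 and PRCP, at 0.987, 0.975 and 0.972. PARP12 had 4.94 to 7.52 FPKM in CTBP2 libraries and 1.91 to 2.94 FPKM in empty vector libraries. These correlations are descriptions over libraries that share lines and vectors, and the highest of many genes.

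Other parts of the corepressor machinery were followed in lists of genes with known roles, chosen with earlier results of these data known. Of 11 tested CoREST and KDM1A partners, 3 rose, 0 fell and 8 were not called, against 34.1% of all genes called, and the list's median log2 fold change was 0.37, against 0.04 over all genes. PHF21A, the reader of unmethylated H3K4 in the complex, had 5.06 to 8.69 FPKM in CTBP2 libraries and 1.37 to 4.77 FPKM in empty vector libraries (log2 fold change 0.98, SE 0.18, limma adjusted p = 0.00623). RCOR3, a paralog of RCOR1, rose by 0.49 (SE 0.15, limma adjusted p = 0.0369) and ZNF516 by 0.42 (SE 0.13, limma adjusted p = 0.0316). None of the 11 was called with the line as labelled, and 1, PHF21A, without the 2 displaced libraries. With equal totals 8 of the 11 rose, at a list median of 0.59, against 0.27 over all genes. That scale shifts genes as a whole upward, and the share of all genes called on it is not given here. The counts with equal totals, for this list and those below, thus have no background beside them and are not read as results about the lists.

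Among 11 partners of the H3K9 methyltransferases, 1 rose, 5 fell and 5 were not called, with a median of -0.39, against 34.1% of all genes called and a median of 0.04. SUV39H2, which writes H3K9 trimethylation, had 2.67 to 6.15 FPKM in CTBP2 libraries and 5.64 to 10.3 FPKM in empty vector libraries (-0.88, SE 0.12, limma adjusted p = 0.00323). Its paralog SUV39H1 fell by 0.91 (SE 0.19, limma adjusted p = 0.00982), the corepressor TRIM28 by 0.71 (SE 0.18, limma adjusted p = 0.017) and CBX3, the HP1 gamma reader of that mark, by 0.64 (SE 0.13, limma adjusted p = 0.00769). CBX3 had 67.9 to 90.7 FPKM in CTBP2 libraries and 109 to 127 FPKM in empty vector libraries, with no overlap. With equal totals 4 of the 11 fell and 1 rose, with the line as labelled none was called, and without the 2 displaced libraries 4 fell and 1 rose.

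Of 19 genes whose proteins are known to bind or recruit CtBP, 11 were tested. Of these, 3 rose, 3 fell and 5 were not called, against 34.1% of all genes called, and the list median was 0.34. Not all of the 19 are DNA-binding proteins that bring CtBP to a gene. BCL6, a germinal centre repressor, was low but apart, at 0.843 to 1.34 FPKM in CTBP2 libraries and 0.0704 to 0.377 FPKM in empty vector libraries (0.80, SE 0.14, limma adjusted p = 0.00545), and it was the one called with the line as labelled (limma adjusted p = 0.0483). BCL6 passed the filter through CTBP2 libraries alone, so it could enter the test only by being higher there, and its call adds nothing to the list's count. RREB1 rose by 0.39 (SE 0.10, limma adjusted p = 0.0195). RBBP8, the DNA end resection factor CtIP, fell by 0.61 (SE 0.14, limma adjusted p = 0.0126) and PNN by 0.58 (SE 0.11, limma adjusted p = 0.00734). Without the 2 displaced libraries 2 rose and 2 fell. With equal totals 5 of 12 tested rose and 0 fell, so the falls of this list depend on the scale.

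The other class I deacetylase complexes (NuRD, SIN3 and NCoR) showed no common direction: of 24 tested genes 4 rose, 4 fell and 16 were not called, with a median of 0.06, which is close to the 34.1% called and the median of 0.04 over all genes. MTA3 of NuRD had 3.004 to 3.41 FPKM in CTBP2 libraries and 1.61 to 2.12 FPKM in empty vector libraries (0.54, SE 0.11, limma adjusted p = 0.00854), and SIN3B rose by 0.43 (SE 0.13, limma adjusted p = 0.0279). SAP30 of the SIN3 complex had 14.2 to 19.1 FPKM in CTBP2 libraries and 23.3 to 30.9 FPKM in empty vector libraries (-0.67, SE 0.14, limma adjusted p = 0.00974), and the methyl-CpG reader MBD2 fell by 0.54 (SE 0.13, limma adjusted p = 0.013). With equal totals 8 rose and 0 fell, with the line as labelled none of the 24 was called, and without the 2 displaced libraries 1 rose and 3 fell. Of 10 Polycomb genes, 3 fell and 7 were not called, against 34.1% of all genes called: EZH2, the H3K27 methyltransferase, by 0.71 (SE 0.16, limma adjusted p = 0.0111), CBX8 by 0.67 (SE 0.16, limma adjusted p = 0.0148) and SUZ12 by 0.44 (SE 0.11, limma adjusted p = 0.0174). With equal totals none of these 10 fell and 1 rose, with the line as labelled none was called, and without the 2 displaced libraries 3 fell.

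Regulators of CtBP were mostly not called, with 8 of 10 not past the threshold, against 34.1% of all genes called. NMNAT1, which makes NAD in the nucleus, rose by 0.49 (SE 0.14, limma adjusted p = 0.0253). With equal totals 3 rose and 0 fell. None of the 10 was called with the line as labelled or without the 2 displaced libraries.

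**Figure D5:**
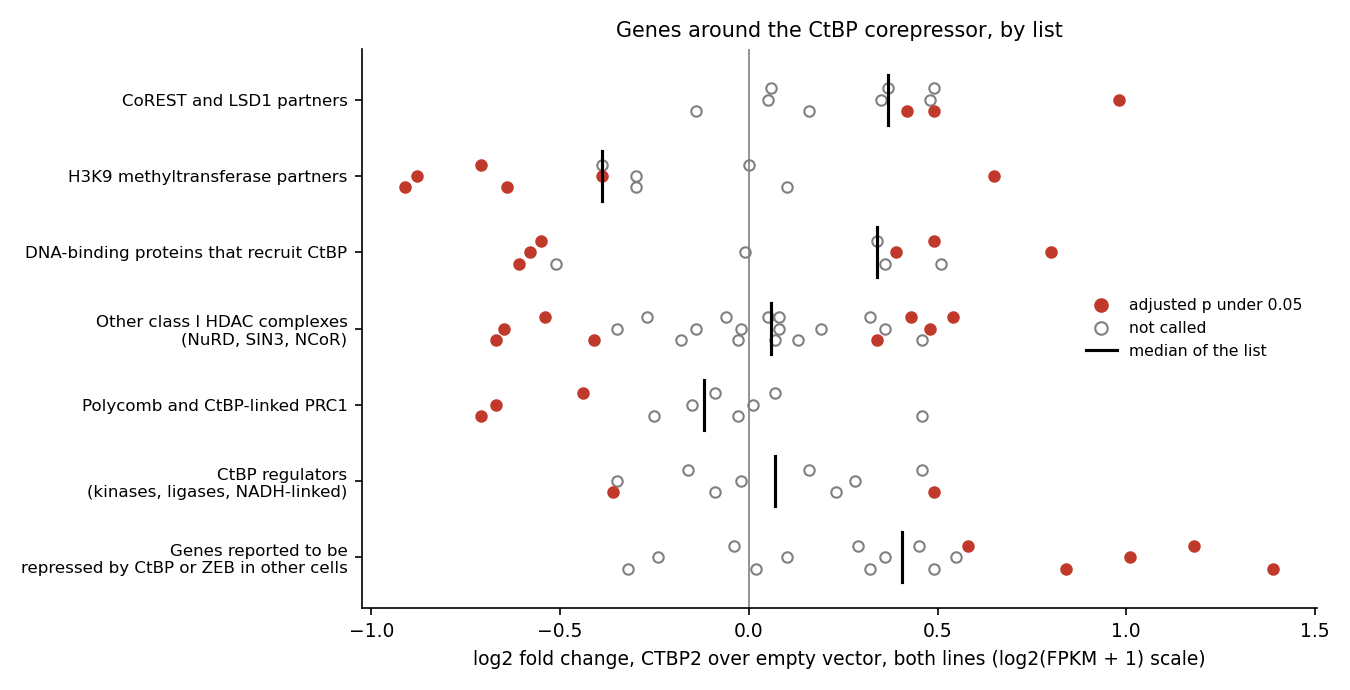
Log2 fold change of CTBP2 over empty vector in both lines together (log2(FPKM + 1) scale) for the tested genes of 7 lists; each point is a gene, filled where the limma adjusted p is under 0.05, and bars are list medians. The medians run from -0.39 for partners of the H3K9 methyltransferases to 0.40 for genes repressed by CtBP or ZEB in other cells. The last list includes EPCAM, ESRP1 and TJP3, which would not have passed the filter on empty vector libraries alone.

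Genes reported to be repressed by CtBP or ZEB proteins in other cells, mainly epithelial ones, were examined for their direction. Of 21, 16 were tested, 5 rose, 0 fell and 11 were not called, with a median of 0.40. The count is close to the share of 34.1% called over all genes, and 3 of the 16, EPCAM, ESRP1 and TJP3, reached 1 FPKM in fewer than 2 empty vector libraries and would not have passed the filter on those alone. The median of 0.40, against 0.04 over all genes, includes these 3. JUP, plakoglobin of cell junctions, had 27.1 and 28.2 FPKM in MM.1S-expressing CTBP2 libraries, against 16.0 and 15.7 FPKM in MM.1S empty vector libraries. In NCI-H929-expressing libraries JUP had 7.60 and 9.01 FPKM with CTBP2, against 1.43 and 1.18 FPKM with the empty vector. Both CTBP2 libraries of a line lay above both of its empty vector libraries, and JUP rose by 1.39 on the log2 scale over both lines (SE 0.23, limma adjusted p = 0.00487). DSP, desmoplakin, had 1.68 to 7.68 FPKM in CTBP2 libraries and 0.146 to 3.96 FPKM in empty vector libraries (1.18, SE 0.23, limma adjusted p = 0.00718). CGN, cingulin of tight junctions, had 6.85 to 11.9 FPKM in CTBP2 libraries and 4.09 to 5.14 FPKM in empty vector libraries (0.84, SE 0.17, limma adjusted p = 0.00786). EPCAM stood at 0.180 to 1.27 FPKM in CTBP2 libraries and 0.0317 to 0.217 FPKM in empty vector libraries (0.58, SE 0.17, limma adjusted p = 0.0264). It passed the filter through CTBP2 libraries alone, so it could enter the test only by being higher there. The EPCAM call thus adds nothing to the list's count. BBC3, the proapoptotic PUMA gene, rose by 1.01 (SE 0.30, limma adjusted p = 0.0277) and is the remaining called gene of the list.

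CDH1, E-cadherin and the best known target of ZEB1 with CtBP, reached at most 0.638 FPKM in any library and was not tested. The count of 5 was 2 with the line as labelled, CGN and BBC3 (limma adjusted p = 0.0418 and 0.0405), and 4 of 15 tested without the 2 displaced libraries, where EPCAM did not pass the filter. No gene of the list fell under either rescale, with 8 of 16 higher after the median-of-ratios rescale and 9 of 16 with equal totals. Both rescales moved the median of all genes upward, to 0.1 and 0.27, and the share of all genes called under them is not given here. The list also includes EPCAM, ESRP1 and TJP3, so these counts are not read as a result about it. Of the mesenchymal genes and transcription factors usually set against these, 4 of 7 were tested and 0 were called in both lines together (limma), against 34.1% of all genes. CDH2 and VIM, 2 of the 4, had an unadjusted p under 0.05 (limma), as did 6016 of all 12583 genes tested. CDH2 had 8.60 to 16.3 FPKM in CTBP2 libraries and 5.43 to 8.996 FPKM in empty vector libraries (0.50, SE 0.21, limma adjusted p = 0.0953), and VIM had -0.64 (SE 0.28, limma adjusted p = 0.104).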

How the data were processed

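TruSeq libraries of 8 cultures were sequenced, per the labels' protocols. Per the submitters' processing notes, the build was GRCh37 (hg19), and the tools named, with no role or order, include STAR 2.6.0b-1 and HTSeq 0.9.1. The FPKM values were deposited by the authors for 25906 genes; the sources used here do not give the tool and annotation behind them, and the unit was read from the table's name and values. FPKM divides by transcript length and library total, so an abundant transcript lowers the rest, and genes with near-identical copies, as CTBP2 and HDAC1 have, are less certain.

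A filter of 1 FPKM in 2 or more libraries left 12583 genes, which were tested on log2(FPKM + 1), a scale that understates changes of low genes, with limma 3.58.1 (R 4.3.3; moderated by eBayes with trend) and Benjamini-Hochberg adjusted p under 0.05 over all genes tested. Both lines together used vector and line as terms, with 5 residual degrees of freedom; the other comparisons used 1 mean per line and vector, with 4. The line was read from CCND2 and FGFR3 at 10 FPKM and the vector from the titles. The labels do not say whether the duplicates were separate cultures beyond calling them biological, so p-values measure the spread between these libraries.

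Depth was estimated from low values of genes with a single transcript, as the depth at which they came nearest to whole fragments. At that depth 54.1 to 64.3% of them were whole to within 0.1. Chance gives 20.0% at a depth fixed beforehand and more at one chosen from the same values, so these shares do not test the depth. Fragment numbers are therefore estimates, and no count test was run. Same-numbered libraries of a line deviated together, with correlations of 0.435 in MM.1S and 0.452 in NCI-H929. Across lines the correlations were -0.276 to 0.027. Replicate numbers were not taken as pairs in the main fits. The replicate block used a term shared by both lines, so pairs within a line were not modelled. Alternatives were the line as labelled, leaving out both libraries labelled CTBP2 replicate 2, a median-of-ratios rescale, a pseudocount of 0.1, a filter of 5 FPKM or none, equal totals without immunoglobulin genes and CTBP2, no trend, a replicate block and leaving out each library.

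The members, lists, tests and the rule for named genes were chosen with earlier results of these data known. All members are named, and of each list up to 4 called genes by smallest p, or up to 2 as values where none was called. BBC3 was added after its values were seen, to complete a count of 5, and 1 called gene among the CtBP regulators is not reported here. For likeness, CTBP1 and the member with the largest change other than CTBP2 were used. The code was tested on simulated data. Sequences are from RefSeq GRCh38.p14, and all 10 members matched by symbol. Figures were drawn with matplotlib 3.10.9.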

Additional observations from a re-analysis of the deposited data

Results flagged for a closer look

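The CTBP2 effect differed between the lines for 3 genes of the lists, by the test of the difference itself on the log2 scale, NCI-H929 minus MM.1S. Over all 12583 genes tested, 158 (1.26%) passed this test. The 3 are those past the threshold out of every gene of all the lists, and their number is not read as a result about the lists. JUP differed by 1.25 (SE 0.21, limma adjusted p = 0.0362), with 2.01 in NCI-H929-expressing and 0.76 in MM.1S-expressing libraries, so it rose in both. VIM, the mesenchymal filament vimentin, differed by 1.53 (SE 0.27, limma adjusted p = 0.0445). It had 540 and 484 FPKM in NCI-H929-expressing CTBP2 libraries, against 503 and 439 FPKM in NCI-H929 empty vector libraries, and 16.6 and 22.7 FPKM in MM.1S-expressing CTBP2 libraries, against 52.7 and 53.5 FPKM in MM.1S empty vector libraries. FN1, fibronectin, differed by 1.37 (SE 0.22, limma adjusted p = 0.0362), with 0.58 in NCI-H929-expressing and -0.79 in MM.1S-expressing libraries, at no more than 3.18 FPKM in any library. None of the 3 passed the test of the difference without the 2 libraries labelled CTBP2 replicate 2 or with the line as labelled.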

How the results depend on the processing

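With the line as labelled, 420 genes were called in both lines together, 3 in MM.1S, 7 in NCI-H929, 2 for the difference and 5 for the empty vector comparison. Without both libraries labelled CTBP2 replicate 2 the counts were 1492 in MM.1S, 1849 in NCI-H929 and 17 for the difference. In MM.1S-expressing libraries no filter gave 384 and a filter of 5 FPKM 422, and for the difference that filter gave 62 and a pseudocount of 0.1 gave 67. With a replicate block shared by both lines, 412 genes were called in MM.1S, 60 for the difference, 3717 in both lines together, 3614 in NCI-H929 and 6140 for the empty vector comparison. Pairs within a line were not modelled. Leaving out 1 library gave 2452 to 4417 in both lines together, 6 to 1514 in MM.1S, 976 to 4869 in NCI-H929, 5 to 208 for the difference and 4586 to 6956 for the empty vector comparison; a lone library was then assumed to vary like the other groups. The cause was not tested.

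Over the 9 tested members, 5 comparisons and 17 alternatives, 676 of 765 values kept direction and call, 54 lost the call, 11 gained it and 24 turned direction. None of the 24 was called, the largest being 0.22 in size on the log2 scale. With CTBP2 against empty vector, HDAC2 came to 0.00 with equal totals in both lines together and 0.01 in MM.1S; with the line as labelled CTBP1 came to -0.02 and EHMT1 to -0.21 in MM.1S and RCOR1 to -0.22 in NCI-H929; and EHMT1 came to 0.00 in NCI-H929 without both displaced libraries and ran from 0.00 to 0.20 when 1 library was left out. For the difference, HDAC1 came to -0.15 and HDAC2 to 0.03 with the line as labelled, HDAC1 to -0.07 and EHMT1 to -0.03 without both displaced libraries, and RCOR1 to 0.05 with equal totals. Leaving out 1 library turned the difference for EHMT2 (-0.11 to 0.18), HDAC1 (0.00 to 0.34) and EHMT1 (-0.06 to 0.15). For the empty vector comparison the median-of-ratios rescale gave 0.01 for HDAC1, 0.07 for HDAC2 and 0.05 for EHMT2, and leaving out 1 library gave -0.22 to 0.03, -0.13 to 0.07 and -0.10 to 0.01 for these. The ratios between members kept their direction without both displaced libraries and without each single library; they use the vector labels alone, so the line as labelled does not enter them.

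Depth limits CTBP2 in empty vector libraries and ZEB2 in all, and 2 libraries a line and vector limit the rest.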
